A study of Danio rerio with 24 samples.

Results

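The comparison described here set embryos exposed to tetrabromobisphenol A (TBBPA) against vehicle embryos at 2 hours post fertilization (hpf), before the onset of zygotic transcription. It used 8 of the 24 libraries of the series, 4 in each group, and every gene with at least 1 FPKM (fragments per kilobase of gene and per unit of library size) in at least 4 of them. That rule kept 11061 of the 31901 genes in the table. It did not use the labels of the groups, although a weak gene could pass it through 1 group alone. The DMSO_2hpf group held whole wild-type zebrafish embryos in 0.1% dimethyl sulfoxide (DMSO), the solvent that carries the compound. The TBBPA_2hpf group held wild-type embryos in 40 µM TBBPA, a brominated flame retardant, with the same 0.1% DMSO. Both groups were treated from 0.75 hpf, and RNA was taken from whole embryos at 2 hpf. Samples of the same kinds were taken at 3.5 and 4.5 hpf. The labels do not say how many embryos or clutches went into a library, so p-values here measure only the spread between libraries, which may be technical.

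An embryo at this age lives on RNA that the mother placed in the egg. Cleavage divisions follow each other quickly, driven by B-type cyclins and their kinase, and the nuclear genome is largely silent until the midblastula transition. The transcription factors Nanog, Pou5f3 and Sox19b, supplied as maternal RNA, open the zygotic genome later, together with readers and writers of histone acetylation. Maternal RNAs are in turn cleared by RNA-binding proteins, deadenylases and, once it is made, the microRNA miR-430. The series title names histone acetylation and zygotic transcription as what the compound disturbs, and the comparison at 2 hpf asks whether the maternal RNA already differed before that transcription began.

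Reads assigned to genes, recovered from the FPKM values, ranged from 12890838 to 14039093 per library. Between 10967 and 11068 genes reached 1 FPKM in a library, and replicates correlated at 0.979 to 0.988 (Pearson, log2 scale, across genes). DMSO replicate 4 stood apart from the other 7 libraries. It lay at 29.3 on the first principal component, against -5.99 to -0.83 for the others, and it had the lowest array weight in limma, 0.411. It was also the farthest library from the median, by over 1 on the log2 scale, in 22 protein-coding genes of at least 5 FPKM, against 1 to 5 genes for each other library.

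Transcripts of mitochondria, histones and mitotic regulators were among the most abundant. The 13 protein-coding genes of the mitochondrial genome held 5.82 ± 0.19% of the summed FPKM in TBBPA and 6.30 ± 0.65% in DMSO (SD, n = 4). The highest of these, mt-co1, a subunit of cytochrome c oxidase, stood at 4760.1 ± 268 FPKM in TBBPA and 5064 ± 587 FPKM in DMSO. Protein-coding genes as a whole held 98.9 ± 0.041% of the summed FPKM in DMSO and 99.0 ± 0.025% in TBBPA. The 100 most abundant genes of a library held 21.9 ± 0.61% in DMSO and 20.9 ± 0.36% in TBBPA, and the first 1000 held 56.5 ± 0.70% and 55.2 ± 0.68%. The shares of the first 100 overlapped little between the groups, and the exact 2-sided permutation test over the 8 libraries gave p = 0.0571, or 0.143 with Benjamini-Hochberg adjustment over 5 library measures. With 4 libraries against 4, that test cannot go below 0.0286.

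Among nuclear genes the most abundant transcript was h2af1al, which encodes a histone H2A variant. Its level was 3612, 3719, 4056 and 3039 FPKM in DMSO and 3160.1, 3036, 3367 and 3535 FPKM in TBBPA. The groups overlapped, since DMSO replicate 4 was about as low as the lowest TBBPA library. The log2 difference, TBBPA minus DMSO, was -0.13 (95% interval -0.33 to 0.06), and -0.21 without DMSO replicate 4. All differences of this kind are on the log2(FPKM+1) scale, from a limma fit across the 11061 genes, and their intervals are not adjusted for the number of genes.

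The tight-junction genes cldnd and cldng, both claudins, were also near the top, at means of 2123 and 841 FPKM over the 8 libraries. Between them came cth1, a zinc-finger protein of the tristetraprolin family, which binds AU-rich RNAs. Its level was 2288, 2103, 2447 and 2092 FPKM in DMSO and 1964, 1733, 2055 and 2084 FPKM in TBBPA. Every TBBPA library was below every DMSO library, by a narrow margin. The difference was -0.19 (95% interval -0.35 to -0.03), with an adjusted p of 0.684 in limma.

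The mitotic cyclins were close behind. ccnb1 stood at 1444 ± 75.04 FPKM in TBBPA and 1546 ± 94.6 FPKM in DMSO, and ccnb2 at 1417 ± 49.6 FPKM in TBBPA and 1529 ± 54.2 FPKM in DMSO. For ccnb2 the libraries were 1529, 1486, 1605 and 1495 FPKM in DMSO and 1409, 1350.2, 1462 and 1445 FPKM in TBBPA. The lowest DMSO library lay just above the highest TBBPA library, and the difference was -0.11 (95% interval -0.22 to 0.00). ccna2 and ccna1, the A-type cyclins, reached 571 and 518 FPKM, and cdc20, which activates the anaphase-promoting complex, 540.1 FPKM. cdk1, the kinase that B-type cyclins activate, was near the floor of the table, with a mean of 1.501 FPKM and 3 to 60 reads per library. Low values next to abundant partners were seen for other division genes, since plk1, the polo kinase, stood at 0.411 FPKM and no read was assigned to mos, the kinase that arrests the egg, or to cks2, a Cdk subunit. How RNA species were selected for the libraries is not given in the sources used here.

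The remaining top 20 nuclear genes were of several kinds. Chromatin genes were the linker histone h1m (1136 FPKM), the histone H3.3 genes h3f3d (1036) and h3f3b.1 (714; identifier ENSDARG00000020504, as the table repeats this symbol), and cdca7a (1067), a partner of a nucleosome remodeller. RNA-binding and splicing genes were khdrbs1a (1098), ilf2 (757) and snrpb (986), a core protein of spliceosomal particles. The others were ddit4, an inhibitor of mTORC1 (898), the polyubiquitin gene ubc (851), bzw1a, a regulator of translation initiation (715), the protease ctsla (775), and mid1ip1l, a maternal factor for the cortical cytoskeleton in zebrafish (795). The activators nanog (1093) and pou5f3 (713) completed the group.

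All 20 were bounded tightly. Their differences ran from -0.19 to 0.02, and every 95% interval lay between 0.783-fold and 1.22-fold. 18 of the 20 were lower in TBBPA and 7 had an unadjusted p under 0.05, although 0 passed the adjusted threshold. Among all genes tested, 7.19% had such an unadjusted p. The groups overlapped in all but cth1 and ccnb2, and a lack of overlap was found in 4.48% of all genes tested. One library took the lowest value in 15 of the 20, TBBPA replicate 2, and DMSO replicate 4 took the lowest in the other 5. DMSO replicate 3 took the highest in 13. The median difference of the 20 was -0.11, and with 1 library left out it ranged from -0.08 (without DMSO replicate 3 or TBBPA replicate 2) to -0.13. The count of lower genes ranged from 14 without DMSO replicate 3 to 20 without DMSO replicate 4. Without DMSO replicate 4 the differences of cldnd and khdrbs1a moved from -0.03 to -0.17 and from -0.05 to -0.16. Scaling every library to the same FPKM total (TPM) shifted the median of all genes to 0.05 and that of these 20 to -0.06, so that 15 were then lower. Relative to the median of all genes, that of the 20 was -0.11 under both scalings.

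**Figure D1:**
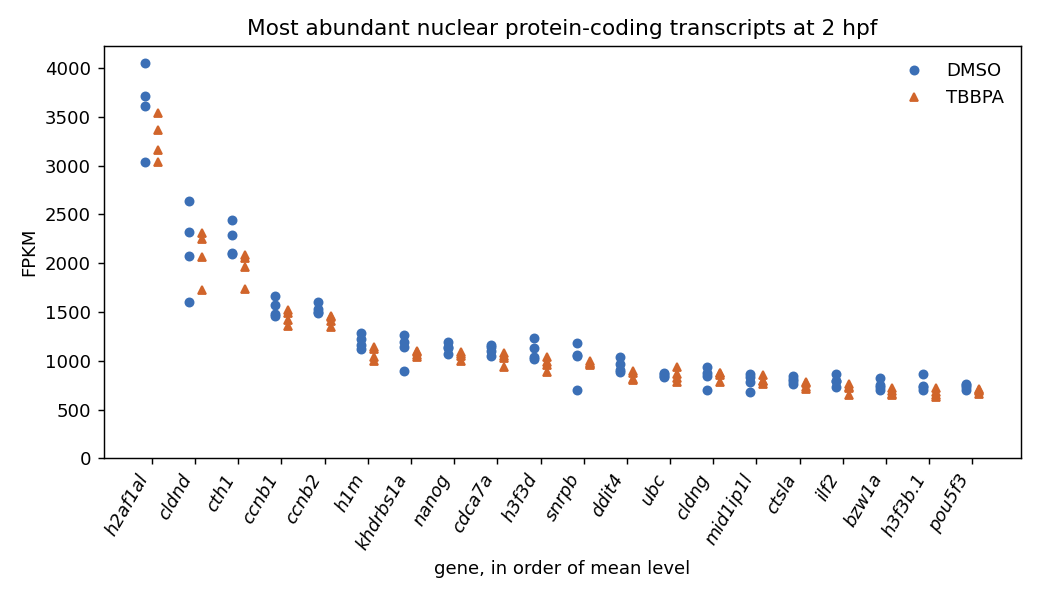
FPKM of the 20 most abundant nuclear protein-coding genes in each library at 2 hpf, in order of mean level, with circles for the 4 DMSO libraries and triangles for the 4 TBBPA libraries. h2af1al spans 3036 to 4056 FPKM, pou5f3, the lowest in rank, has a mean of 713, and the groups overlap in all but cth1 and ccnb2.

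Zygotic transcripts were nearly absent. Of 42 early zygotic genes, 41 had a mean under 1 FPKM and 14 had no read in any library. The exception was znf16l, with 4.59, 3.78, 4.45 and 3.84 FPKM in DMSO and 4.24, 4.25, 5.19 and 4.71 FPKM in TBBPA, and its groups overlapped. The list as a whole held 0.00216 ± 0.00032% of the summed FPKM in TBBPA and 0.00207 ± 0.00012% in DMSO. Among the 55 annotated miR-430 genes, 0 reads were assigned in any library. As the RNA selection is not given in the sources used here, this count does not show whether they were transcribed. klf17, an early zygotic transcription factor, stood at 0.738 FPKM at 2 hpf, and at 99.8 ± 12.09 FPKM in TBBPA and 191 ± 4.66 FPKM in DMSO at 3.5 hpf, in a table that was scaled separately.

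Markers of cell types that an embryo of this age lacks were also near the floor. Of 34 genes of muscle, blood, pigment, neurons and other differentiated cells, 3 reached the filter, namely tnnt3a, tyr and ckmb, at means of 1.01 to 1.54 FPKM, and 15 had no read. tnnt3a, a troponin gene, was the 1 with an unadjusted p under 0.05, against 7.19% of all genes tested. It had 1.42, 0.7197, 1.12 and 1.05 FPKM in DMSO and 2.77, 1.65, 2.15 and 1.42 FPKM in TBBPA, and its groups overlapped. Of 19 markers of the ovarian follicle and the maternal liver, 1 reached it. That gene, cyp11a1, which starts steroid synthesis, had 57.8, 46.2, 54.3 and 55.6 FPKM in DMSO and 47.7, 49.5, 55.4 and 52.5 FPKM in TBBPA. The follicle markers fshr, inha, hsd3b1 and star had no reads, and gsdf, amh and cyp19a1a were at 0.034 FPKM or less. The second list held 0.0144 ± 0.00077% of the summed FPKM in TBBPA and 0.0145 ± 0.0012% in DMSO, nearly all of it cyp11a1.

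No gene differed between the groups past the threshold. limma with Benjamini-Hochberg adjustment called 0 of 11061 genes at 0.05 (0%), and the smallest adjusted p was 0.434. limma's voom method, run on the recovered reads, also called 0. At an unadjusted p under 0.05 there were 795 genes (7.19%), 365 higher in TBBPA (3.30%) and 430 lower (3.89%), and 490 without TBBPA replicate 2. Their direction depended on the scaling, as TPM gave 639 higher and 177 lower and voom 584 and 239. In 495 genes (4.48%) every library of one group was above every library of the other. Most differences were small on the log2(FPKM+1) scale, as 80% of genes lay between -0.17 and 0.20. On that scale 87 exceeded 1.5-fold and 11 exceeded 2-fold. The 1 added to FPKM draws weak genes toward 0, so their ratios of FPKM can be larger. RNA per embryo was not measured, so these are differences in share of the RNA, and in whole embryos fewer cells of a type and less RNA per cell cannot be told apart.

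**Figure D2:**
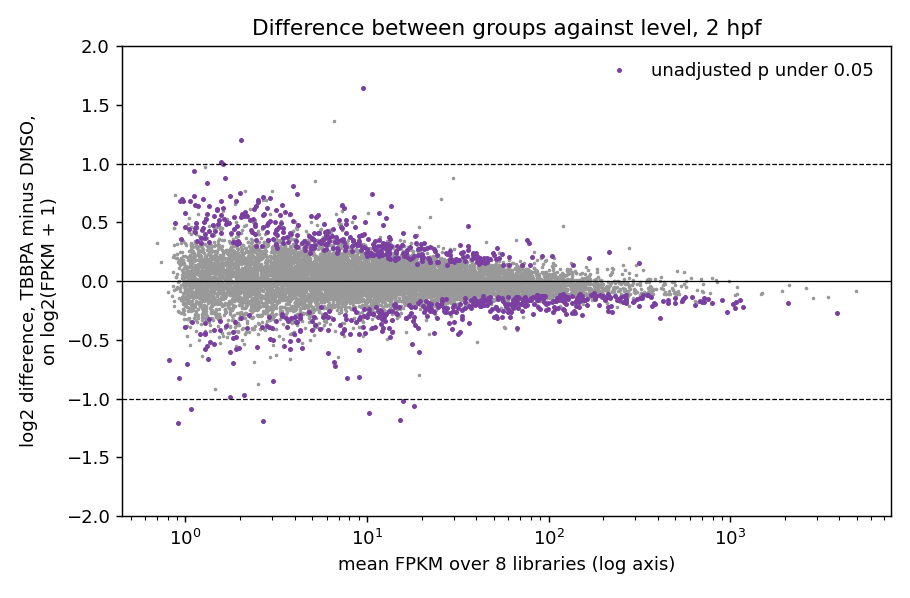
Log2 difference between TBBPA and DMSO at 2 hpf (vertical axis, log2(FPKM+1) scale) against mean FPKM over the 8 libraries (log axis), 1 point for each of the 11061 genes, with purple points at an unadjusted p under 0.05 and dashed lines at 2-fold. The spread narrows with level, and most genes over 100 FPKM lie below 0.

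Abundant genes leaned slightly lower in TBBPA. The 740 genes over 100 FPKM had a median difference of -0.07, with 81.5% of them lower and 17.0% at an unadjusted p under 0.05. Those of 20 to 100 FPKM had a median of -0.02, and the groups from 1 to 20 FPKM medians of 0.02 to 0.03. TPM shifted all classes upward together, to -0.02 over 100 FPKM and 0.07 between 5 and 20 FPKM, so that 60.4% of genes over 100 FPKM were lower. Relative to the median of all genes, the class over 100 FPKM stood at -0.07 with the deposited values, TPM and voom. The summed FPKM of a library ranged from 368780 to 385384 in DMSO and from 357317 to 369791 in TBBPA, so the groups overlapped. The exact 2-sided permutation test gave p = 0.0571 (n = 4 a group), or 0.143 with Benjamini-Hochberg adjustment over 5 library measures.

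The smallest p-value belonged to zp3f.1, a gene of the zona pellucida family that builds the egg envelope (chromosome 2, 38282647 to 38284749, minus strand, in the table's coordinates, whose genome build is not given in the sources used here). The table lists it by a clone name, and the symbol comes from a table of identifiers. Its level was 30.1, 31.5, 27.1 and 30.7 FPKM in DMSO and 40.4, 43.9, 37.5 and 45.3 FPKM in TBBPA. Every TBBPA library was above every DMSO library, and the difference was 0.47 (95% interval 0.30 to 0.64), with an adjusted p of 0.434 in limma. Over the 17 alternative settings the difference stayed between 0.43 and 0.53, and the adjusted p between 0.329 and 0.943. In the separate libraries of 3.5 hpf the gene stood at 60.8 ± 3.25 FPKM in TBBPA and 47.4 ± 2.395 FPKM in DMSO, where the limma difference was 0.35 with an adjusted p of 0.00090.

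The next was f2rl1.2, which encodes a receptor cleaved by proteases (chromosome 21, 7921717 to 7928101, minus strand). Its level was 21.4, 24.6, 23.2 and 25.02 FPKM in DMSO and 17.7, 13.3, 13.6 and 16.1 FPKM in TBBPA, with a difference of -0.61 (95% interval -0.83 to -0.39) and an adjusted p of 0.434 in limma. All 4 TBBPA libraries were below all 4 of DMSO. At 3.5 hpf the difference of this gene was 0.00. iba57, needed to build mitochondrial iron-sulfur clusters, had 5.04, 6.03, 5.896 and 4.71 FPKM in DMSO and 7.54, 9.91, 9.48 and 9.39 FPKM in TBBPA, a difference of 0.65 (95% interval 0.39 to 0.91) and no overlap of the groups. ccni2, of the cyclin I family, had 39.3, 42.2, 35.5 and 32.8 FPKM in DMSO and 28.5, 28.01, 26.6 and 26.1 FPKM in TBBPA. Its groups did not overlap at 2 hpf, with a difference of -0.44 (95% interval -0.62 to -0.26), and at 3.5 hpf the difference was 0.65, with an adjusted p of 0.0013 in limma.

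The other small p-values were of weaker genes or smaller differences. gpatch3, a G-patch protein, had 29.6, 28.01, 29.1 and 29.4 FPKM in DMSO and 33.8, 35.8, 36.8 and 38.3 FPKM in TBBPA, so that DMSO libraries lay within 2 FPKM of each other and TBBPA libraries above them. Its difference was 0.31 (95% interval 0.17 to 0.44), and at 3.5 hpf 0.19, with an adjusted p of 0.003 in limma. cox7a2a, a subunit of cytochrome c oxidase, was at 0.545 ± 0.172 FPKM in TBBPA and 1.503 ± 0.1202 FPKM in DMSO, near the filter. nap1l4a, a nucleosome assembly protein, had 11.2, 10.4, 8.99 and 10.05 FPKM in DMSO and 3.48, 7.81, 4.87 and 5.66 FPKM in TBBPA, and the groups did not overlap. The others were tmem17, described below, BX119963.3, at a mean of 0.907 FPKM, and 1 gene known only by a clone name, at 1.12 FPKM. cox7a2a and BX119963.3 passed the filter only through the DMSO libraries, and the clone-named gene only through the TBBPA libraries. For these genes the filter was not independent of the difference between the groups.

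Ranked by size instead, the largest differences without overlap were often set by few libraries. naa10, the catalytic subunit of an N-terminal acetyltransferase, had 9.47, 10.6, 13.7 and 24.9 FPKM in DMSO and 5.38, 5.07, 8.25 and 4.71 FPKM in TBBPA. DMSO replicate 4 was far above the others, and the difference was -1.12 (95% interval -1.69 to -0.55) with it and -0.85 without it. maip1, a mitochondrial protein, had 16.1, 43.6, 17.96 and 11.4 FPKM in DMSO and 8.09, 9.34, 11.4 and 8.24 FPKM in TBBPA. Here DMSO replicate 2 was the high library, and the difference moved from -1.02 to -0.65 without it. tmem17, a protein of the ciliary transition zone, had 6.35, 8.93, 8.701 and 10.4 FPKM in DMSO and 4.99, 5.34, 3.83 and 4.93 FPKM in TBBPA, and a difference of -0.72 (95% interval -1.05 to -0.40).

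On the higher side exosc4, a subunit of the RNA exosome, had 2.62, 4.71, 2.73 and 1.57 FPKM in DMSO and 4.9997, 5.12, 6.09 and 4.94 FPKM in TBBPA. The TBBPA libraries were close together and the DMSO libraries spread, and the difference was 0.74 (95% interval 0.28 to 1.2). dedd1, with a death effector domain, was at 6.03 ± 0.388 FPKM in TBBPA and 3.81 ± 0.628 FPKM in DMSO, and psmc5, an ATPase of the proteasome, at 10.2 ± 1.23 FPKM in TBBPA and 6.74 ± 1.49 FPKM in DMSO. ess2, of the spliceosome, had a difference of 0.54, which was 0.36 without TBBPA replicate 3. The others were gtpbp4 (0.52), a GTPase of ribosome assembly, aven (0.45), an inhibitor of apoptosis, hgs (0.44), of endosomal sorting, and cntrl (0.42), of the centrosome.

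The lower side was completed by tceanc2 (-0.45), homer2 (-0.45), a scaffold protein of synapses in mammals, ppp3r1a (-0.45), the regulatory subunit of calcineurin, and tomm6 (-0.45), of the mitochondrial import channel. tomm6 had 22.3, 25.2, 33.4 and 27.8 FPKM in DMSO and 19.3, 20.0004, 19.9 and 18.8 FPKM in TBBPA. The TBBPA libraries agreed within 1.3 FPKM and the DMSO libraries spread over a wider range above them. The adjusted p in limma of all 20 of these genes lay between 0.434 and 0.684.

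**Figure D3:**
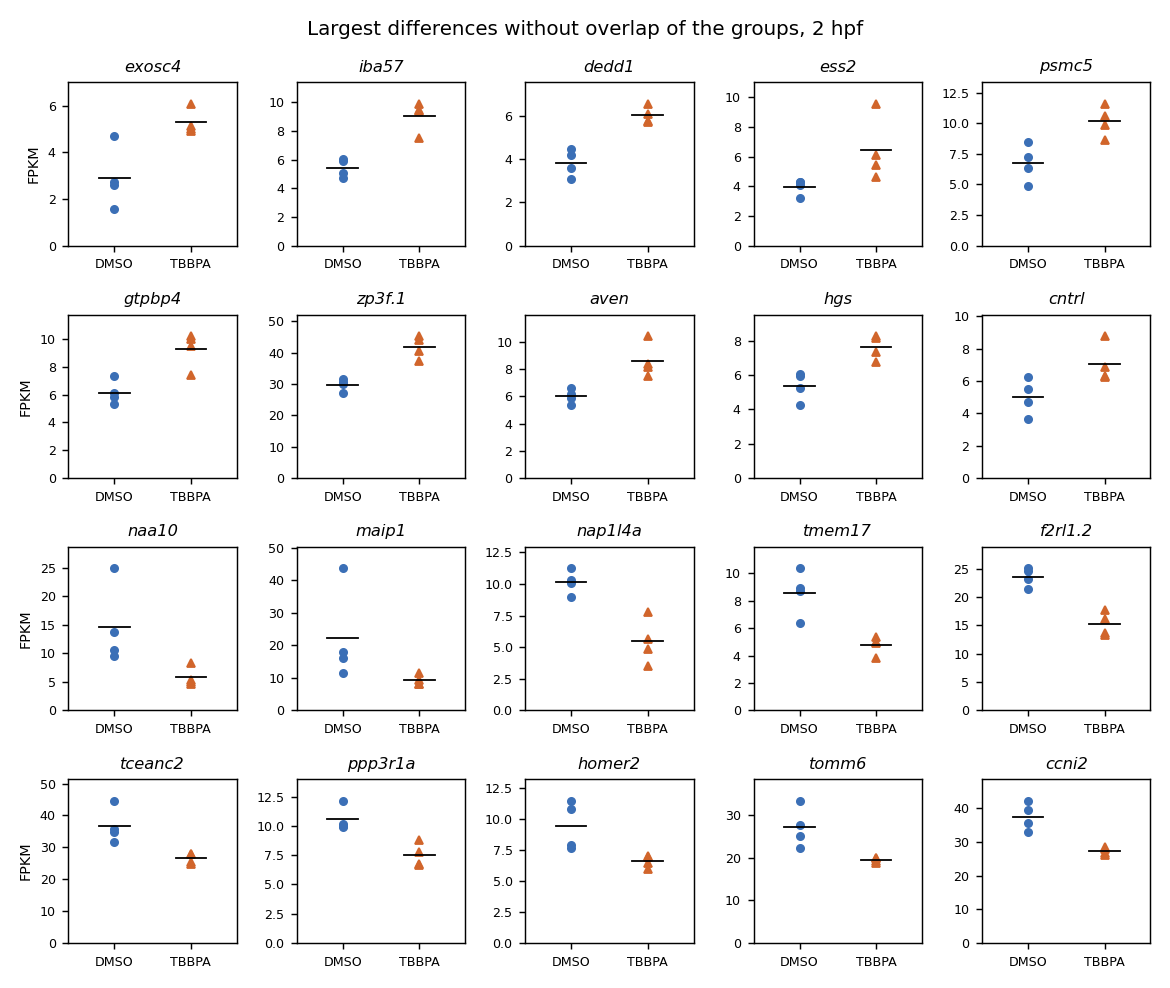
FPKM in each library at 2 hpf for the 10 highest and 10 lowest differences among genes whose groups did not overlap, with circles for DMSO, triangles for TBBPA and a bar at each group's mean of 4. In naa10 and maip1 a single DMSO library lies far above the rest, while in zp3f.1 and f2rl1.2 the libraries of a group lie close together.

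The activators of the zygotic genome were present at high and like levels in both groups. nanog stood at 1139, 1067, 1196 and 1131 FPKM in DMSO and 1048, 998, 1093 and 1069 FPKM in TBBPA. DMSO libraries were mostly higher, with overlap, and the difference was -0.11 (95% interval -0.22 to 0.01). pou5f3 had a difference of -0.09 (95% interval -0.19 to 0.02) and sox19b, at 433 ± 8.67 FPKM in TBBPA and 436 ± 18.3 FPKM in DMSO, of -0.01 (95% interval -0.11 to 0.10). Each of the 3 was thus bounded within 0.32 of 0 on the log2 scale, and 0 had an unadjusted p under 0.05, against 7.19% of all genes tested. In the other libraries of 3.5 hpf, limma gave adjusted p-values of 0.0021 for nanog, with a difference of -0.12, and 0.00055 for pou5f3, with -0.17.

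Enzymes and readers of histone acetylation did not differ past the threshold either. Of 18 histone acetyltransferase genes tested, 14 were higher and 4 lower in TBBPA, with a median of 0.09. An unadjusted p under 0.05 was found for 2 of them and for 7.19% of all genes tested. Without TBBPA replicate 1 the median was 0.06, and 6 genes were lower. kat6b had 10.3, 10.5, 9.59 and 11.5 FPKM in DMSO and 12.8, 12.9, 12.5 and 11.9 FPKM in TBBPA, with no overlap and a difference of 0.24 (95% interval 0.05 to 0.43). hat1, which acetylates new histone H4, had 6.96, 9.33, 8.51 and 7.43 FPKM in DMSO and 10.4, 11.2, 7.81 and 11.6 FPKM in TBBPA, with overlap and a difference of 0.30 (95% interval 0.01 to 0.60). The share of the summed FPKM in these genes was lowest, at 0.105%, in DMSO replicate 3, and lay between 0.113 and 0.114% in the other vehicle libraries. The more abundant members were closer to 0. kat7b, an acetyltransferase linked to replication origins, at 128 FPKM, had a difference of -0.01 (95% interval -0.12 to 0.09), and ep300b, a p300 homologue, had 53.6, 45.2, 44.7 and 44.02 FPKM in DMSO and 49.8, 48.5, 51.9 and 44.7 FPKM in TBBPA, with 0.06 (95% interval -0.11 to 0.23). The 14 deacetylases had a median of -0.06, and hdac1, the most abundant, had 162, 159, 166 and 166 FPKM in DMSO and 152, 139.5, 161 and 154 FPKM in TBBPA. The groups overlapped, with a difference of -0.11 (95% interval -0.23 to 0.01). All 14 deacetylase intervals lay within 1.5-fold on this scale and 11 of 14 with voom.

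Among the 10 genes of acetyl-lysine readers tested, brd3a was the most abundant at 151 FPKM, with a difference of -0.07 (95% interval -0.18 to 0.03). brpf1, a scaffold of acetyltransferase complexes, was the 1 member with an unadjusted p under 0.05, against 7.19% of all genes tested. Its difference was 0.27 (95% interval 0.01 to 0.52). All 10 intervals lay within 1.5-fold by limma and by voom. The catalogue of writers, erasers and readers was thus bounded to smaller differences than 1.5-fold in 40 of 42 genes by limma and in 33 by voom.

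Maternal histones and their chaperones had lower values in TBBPA more often than not, 22 of 27 with a median of -0.07. The median level of the list was 30.8 FPKM. All genes of 20 to 100 FPKM had a median difference of -0.02, with 57.7% lower, and those over 100 FPKM one of -0.07. Of the 27, 8 were lower at an unadjusted p under 0.05 and 1, the chromatin assembly gene chaf1b, higher. Among all genes tested, 3.89% were lower and 3.30% higher at that level. h2afva, an H2A.Z gene, had 520.1, 518, 552 and 532 FPKM in DMSO and 447, 447, 484 and 491 FPKM in TBBPA. The groups did not overlap, and the difference was -0.18 (95% interval -0.30 to -0.07), with an adjusted p of 0.684 in limma. h1m had 1165, 1122, 1284 and 1227 FPKM in DMSO and 1036, 999, 1120.4 and 1137 FPKM in TBBPA, with overlap and a difference of -0.16 (95% interval -0.30 to -0.02), and h3f3d a difference of -0.19 (95% interval -0.35 to -0.03). Relative to the median of all genes, that of the list was -0.07 under TPM as well, although 66.7% of it was then below 0. It ranged from -0.07 to -0.11 with 1 library left out, the last without DMSO replicate 2.

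No gene of cleavage or of DNA replication passed the adjusted threshold. An unadjusted p under 0.05 was found in 7.19% of all genes tested, and in 17.0% of those over 100 FPKM. Of the cell-cycle genes 8 were at 100 FPKM or more, and of the replication genes 10. The groups did not overlap in 3 cell-cycle genes and 4 replication genes, against 4.48% of all genes tested. Of 28 cell-cycle genes tested, 10 were higher and 18 lower, and 3 had an unadjusted p under 0.05, all lower. These were cdc20, with 562, 534, 571 and 623 FPKM in DMSO and 508, 469, 529 and 525 FPKM in TBBPA, cdc25b, the phosphatase that activates mitotic kinase (-0.12), and cdk2, a kinase of the DNA synthesis phase. cdc20 and cdk2 did not overlap between groups, and their differences were -0.17 (95% interval -0.30 to -0.04) and -0.12 (95% interval -0.23 to -0.02). Of 35 replication genes, 14 were higher and 21 lower, with 4 and 3 at an unadjusted p under 0.05. mcm4, of the replicative helicase, had 83.9, 86.3, 83.5 and 88.2 FPKM in DMSO and 95.7, 102, 92.5 and 106 FPKM in TBBPA, without overlap and with a difference of 0.21 (95% interval 0.09 to 0.33). orc4, of the origin recognition complex, had 18.4, 19.004, 18.98 and 23.7 FPKM in DMSO and 15.3, 16.8, 15.99 and 14.3 FPKM in TBBPA and -0.34 (95% interval -0.54 to -0.13). The helicase genes mcm5 (0.28) and mcm2 (0.37) also had positive values, mcm7 was at 0.06, and mcm3 at -0.12.

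Oocyte and germ line RNAs were abundant. buc, the organizer of the Balbiani body, was at 186 FPKM, org, an oogenesis-related gene, at 268, cpeb1b, which controls poly(A) tails of dormant RNAs, at 164, and zar1, a maternal translational regulator, at 27.9. Of 26 egg coat and oocyte genes tested, 12 were higher and 14 lower, with a median of -0.02. zp3f.1 was the 1 with a higher value at an unadjusted p under 0.05, against 3.30% of all genes tested. 3 were lower at that level, against 3.89% of all genes tested. These were zp2.5, another egg-envelope gene (-0.31, 95% interval -0.61 to -0.02), pabpn1l, a poly(A)-binding protein (-0.37, 95% interval -0.70 to -0.05), and org (-0.18, 95% interval -0.36 to -0.01). Of the other envelope genes, zp3b had a difference of 0.10 (95% interval -0.05 to 0.26) and zp3c of 0.10 (95% interval -0.08 to 0.28). All 19 germ plasm genes were tested, with a median of -0.01. At an unadjusted p under 0.05, 3 of them were lower, against 3.89% of all genes tested. dazl, an RNA-binding protein of germ cells, had 172, 148, 189 and 167 FPKM in DMSO and 142, 121, 152 and 138 FPKM in TBBPA, and a difference of -0.29 (95% interval -0.48 to -0.10), with 1 TBBPA library inside the DMSO range. Closer to 0 were the germ line genes ddx4 (-0.03, 95% interval -0.16 to 0.10), nanos3 (0.06, 95% interval -0.17 to 0.28) and dnd1 (0.01, 95% interval -0.15 to 0.17).

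The maternal determinants of the body axes were level between the groups, with a median of -0.01 over 29 genes. At an unadjusted p under 0.05, 2 were higher and 1 lower, and the groups did not overlap in 2. Among all genes tested those shares were 3.30, 3.89 and 4.48%. The beta-catenin genes ctnnb2 and ctnnb1 were at 611 and 349.6 FPKM, with differences of 0.03 (95% interval -0.19 to 0.24) and 0.01 (95% interval -0.10 to 0.12). gdf6a, a ligand of the BMP family, had 4.17, 3.65, 3.98 and 4.25 FPKM in DMSO and 5.29, 4.37, 5.32 and 6.27 FPKM in TBBPA, without overlap and with 0.33 (95% interval 0.06 to 0.60). mapkapk2a, a kinase needed for epiboly in zebrafish, had 12.12, 11.6, 14.8 and 13.7 FPKM in DMSO and 9.47, 10.3, 11.3 and 10.9 FPKM in TBBPA, also without overlap, and -0.29 (95% interval -0.51 to -0.07). gdf3, a ligand needed for mesoderm, was at 362 FPKM (-0.04) and eomesa, a T-box factor of endoderm, at 321 (-0.03). Regulators of maternal RNA clearance also centred on 0, with 26 higher and 25 lower of 51. At an unadjusted p under 0.05, 3 of them were higher and 4 lower, against 3.30 and 3.89% of all genes tested. The groups did not overlap in 3 of the 51, against 4.48% of all genes tested. ythdf2, a reader of methylated RNA, had a difference of 0.21 (95% interval 0.04 to 0.39) and ddx6, an RNA helicase of decay bodies, of -0.26 (95% interval -0.44 to -0.07). igf2bp3, which stabilises maternal RNAs in zebrafish, had 39.7, 39.3, 38.2 and 43.03 FPKM in DMSO and 44.98, 47.96, 43.5 and 43.5 FPKM in TBBPA. Its groups did not overlap, and the difference was 0.16 (95% interval 0.03 to 0.30). btg4, a maternal deadenylase adaptor, had no reads.

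Ribosomal protein genes held a small share of this RNA, 1.26 ± 0.040% of the summed FPKM in TBBPA and 1.31 ± 0.034% in DMSO for 82 genes. Of 76 tested, 66 were lower and 10 higher in TBBPA, with a median of -0.10. At an unadjusted p under 0.05, 11 were lower and 1 higher, against 3.89 and 3.30% of all genes tested. rpl31 had 69.5, 85.5, 80.8 and 75.5 FPKM in DMSO and 67.6, 63.2, 64.1 and 64.2 FPKM in TBBPA. The lowest DMSO library lay above the highest TBBPA library, and the difference was -0.26 (95% interval -0.41 to -0.11). rps15a had 34.5, 42.2, 40.97 and 46.8 FPKM in DMSO and 30.1, 26.9, 33.4 and 37.4 FPKM in TBBPA, with overlap and -0.36 (95% interval -0.60 to -0.11). Under TPM 73.7% of the list was lower, and the median was -0.06. The median over all genes tested was -0.00 in the first scale and 0.05 in the second, so the list stood at -0.10 and -0.11 relative to it. One ribosomal gene went far the other way, rps27a, described below.

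The mitochondrially encoded genes had a median of -0.18 over 13 genes, relative to the median of all genes both with the deposited values and under TPM. 12 were lower in TBBPA and 7 had an unadjusted p under 0.05, against 7.19% of all genes tested. The groups overlapped in all 13, and a lack of overlap was found in only 4.48% of all genes tested. mt-nd4, of respiratory complex I, had 1111, 1025, 1185 and 1298 FPKM in DMSO and 999, 955, 1047 and 933 FPKM in TBBPA, and a difference of -0.23 (95% interval -0.39 to -0.07). mt-atp6, of the ATP synthase, had 3937, 3709, 4335 and 5089 FPKM in DMSO and 3601, 3186, 3724 and 3591 FPKM in TBBPA, and -0.27 (95% interval -0.48 to -0.06). DMSO replicate 4 was the highest library in both. It held 7.19% of its summed FPKM in these genes, against 5.76 to 6.35% in the other DMSO libraries and 5.57 to 5.97% in TBBPA. Without it the median was -0.11. In the libraries of 3.5 hpf, limma gave mt-nd4 a difference of -0.31 with an adjusted p of 0.0014.

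Stress and receptor genes were mostly weak. Of 42 xenobiotic response genes, 27 were under 1 FPKM, cyp1a among them at 0.429. An unadjusted p under 0.05 was found for 0 of the 15 tested and for 7.19% of all genes tested, so few were to be found in so short a list. gstp1, a glutathione transferase, was at 231 ± 20.4 FPKM in TBBPA and 262 ± 36.7 FPKM in DMSO. The dioxin receptor gene ahr2 was at 4.75 FPKM with a difference of -0.03 (95% interval -0.30 to 0.24). Of the antioxidant genes, gclm, for glutathione synthesis, had 94.6, 94.8, 90.1 and 98.8 FPKM in DMSO and 87.8, 79.8, 88.9 and 87.3 FPKM in TBBPA. Its groups did not overlap and its difference was -0.14 (95% interval -0.26 to -0.02). Of 22 antioxidant genes tested, it was the 1 with an unadjusted p under 0.05 and the 1 without overlap. Among all genes tested those shares were 7.19 and 4.48%. Of the 22, 6 were higher and 16 lower in TBBPA. The median was -0.04, and -0.00 without TBBPA replicate 1. hmox1a had at most 7 reads in a library.

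Receptors of thyroid hormone, lipids and estrogen, which TBBPA is studied for in other systems, were tested in 16 of 31 genes. 12 were higher and 4 lower in TBBPA, with a median of 0.12, and 2 had an unadjusted p under 0.05, against 7.19% of all genes tested. thraa, a thyroid hormone receptor, had 11.9, 12.99, 12.6 and 10.02 FPKM in DMSO and 14.05, 15.04, 14.5 and 14.4 FPKM in TBBPA, without overlap, and a difference of 0.27 (95% interval 0.07 to 0.48). At 3.5 hpf limma gave it 0.26, with an adjusted p of 0.015. It was the 1 gene of the 16 called there, against 12.0% of all genes tested at 3.5 hpf. The median of the list was 0.01 at that time. esrra, an orphan receptor related to the estrogen receptors, had 6.497, 6.18, 5.75 and 5.41 FPKM in DMSO and 7.66, 8.76, 6.66 and 8.03 FPKM in TBBPA, also without overlap, and 0.33 (95% interval 0.09 to 0.58). A lack of overlap was found in these 2 of the 16 genes, and in 4.48% of all genes tested. At 2 hpf the median of the list was 0.01 without DMSO replicate 3, 0.06 without TBBPA replicate 2 and 0.08 without DMSO replicate 1.

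Genes of apoptosis and the response to DNA damage had a median of -0.06 over 23 tested, and of -0.03 without DMSO replicate 3 or TBBPA replicate 2. Of the 23, 6 were higher and 17 lower in TBBPA. An unadjusted p under 0.05 was found for 1 higher and 1 lower gene, against 3.30 and 3.89% of all genes tested. The groups overlapped in all 23, and a lack of overlap was found in 4.48% of all genes tested. pmaip1, which promotes apoptosis, was at 1.9003 ± 0.503 FPKM in TBBPA and 1.11 ± 0.626 FPKM in DMSO. The damage response genes cdkn1a, gadd45aa and phlda3 had means of 0.0392, 0 and 0.158 FPKM. Of the genes of protein folding stress, hspa5, the chaperone of the endoplasmic reticulum, had 198, 208, 200.03 and 181 FPKM in DMSO and 214, 263, 198 and 268 FPKM in TBBPA, and 0.25 (95% interval 0.04 to 0.46). xbp1, a transcription factor of that response, had 10.6, 9.48, 10.03 and 9.097 FPKM in DMSO and 11.8, 12.06, 11.2 and 13.3 FPKM in TBBPA, without overlap and with 0.28 (95% interval 0.08 to 0.48). Both had higher means in TBBPA. They were the 2 of 30 genes tested with an unadjusted p under 0.05, against 7.19% of all genes tested. The groups did not overlap in 2 of the 30, against 4.48% of all genes tested. Of the 30, 16 were higher and 14 lower, with a median of 0.01.

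The remaining lists were close to the background, in which 7.19% of genes had an unadjusted p under 0.05. Translation factors, led by the poly(A)-binding gene pabpc1a at 558 FPKM, had 1 higher and 2 lower genes at an unadjusted p under 0.05 of 37 tested. RNA polymerase II machinery had 2 higher and 1 lower of 38. hexim1, an inhibitor of the elongation kinase, had 46.4, 50.2, 55.8 and 35.9 FPKM in DMSO and 56.7, 57.5, 54.97 and 58.4 FPKM in TBBPA, with overlap and 0.29 (95% interval 0.04 to 0.53). Cytoskeleton genes had 1 higher and 1 lower of 19, and actb2, a cytoplasmic actin, had 0.08 (95% interval -0.06 to 0.22). Glycolysis genes had 1 higher of 16. That was ldha, a lactate dehydrogenase, with 9.39, 8.45, 8.17 and 10.1 FPKM in DMSO and 11.3, 10.7, 10.1 and 11.1 FPKM in TBBPA, without overlap and with 0.24 (95% interval 0.03 to 0.45). Immediate-early genes had 0 of 8, and btg2, their most abundant at 365 FPKM, had -0.07 (95% interval -0.18 to 0.05).

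**Figure D4:**
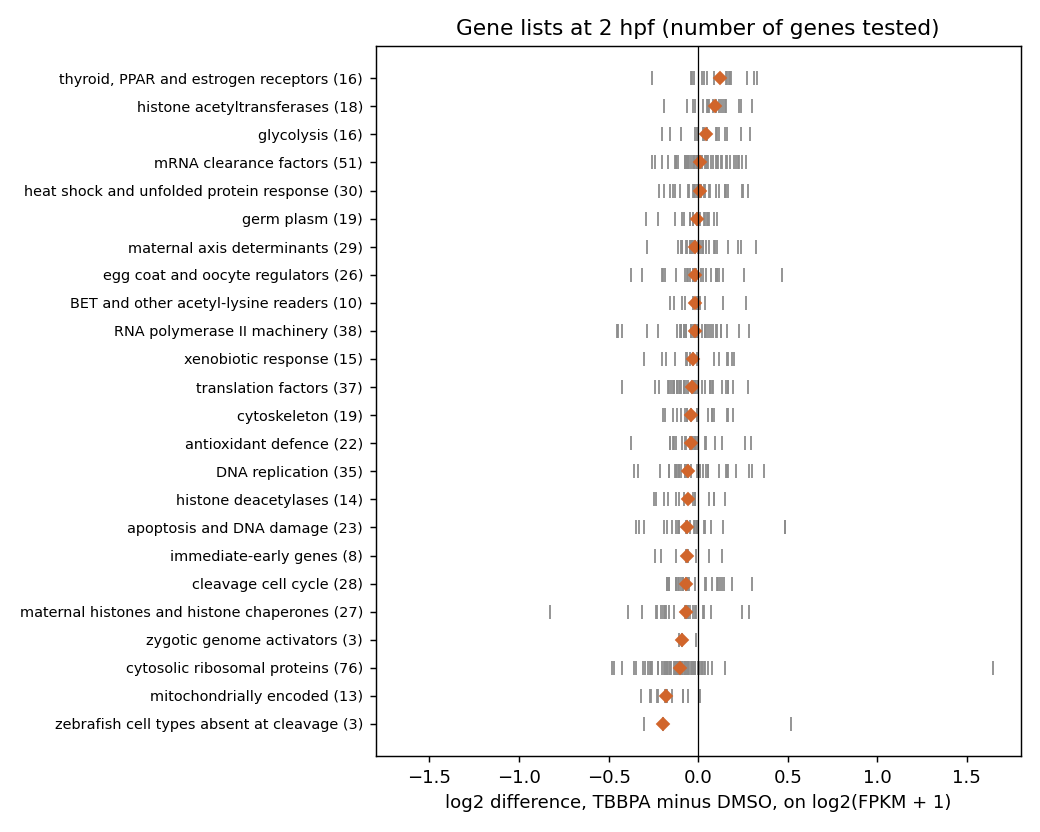
Log2 difference between TBBPA and DMSO at 2 hpf (horizontal axis, log2(FPKM+1) scale) for each tested gene (grey ticks) of 24 gene lists with at least 3 genes tested, and the median of each list (orange diamonds). List medians lie between -0.20 and 0.12, and the tick far to the right among the ribosomal proteins is rps27a.

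How small a difference these libraries can bound depended on the level. Over all genes the 95% interval lay within 2-fold in 97.8%, within 1.5-fold in 84.2%, and within 0.32 of 0 on the log2 scale in 39.2%. Over 100 FPKM those shares were 99.7, 99.5 and 87.3%, and the median half-width was 0.14 on the log2 scale, a factor of 1.1. Between 5 and 20 FPKM, at a median of 348 reads per library, the half-width was 0.27, and between 1 and 2 FPKM, at 46.8 reads, 0.39. A pseudocount of 1 draws weak genes toward 0 and narrows their intervals. voom, which bounds the ratio itself, gave half-widths of 0.12 over 100 FPKM, 0.29 between 5 and 20 and 0.69 between 1 and 2 FPKM. It placed 89.6% of all genes within 2-fold, but 54.9% of the genes between 1 and 2 FPKM. At 5 FPKM and over, 99.2% by limma and 98.6% by voom lay within 2-fold.

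**Figure D5:**
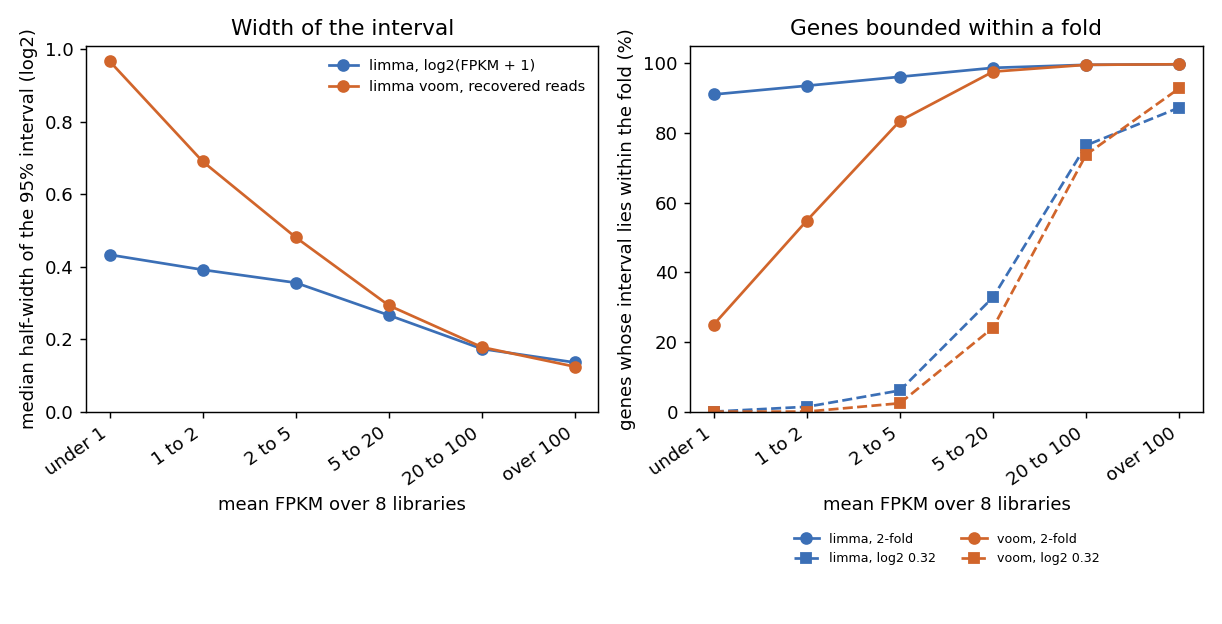
Left, median half-width of the 95% interval of the TBBPA minus DMSO difference (log2) by mean FPKM. Right, share of genes whose interval lies within 2-fold (solid) or within 0.32 of 0 on the log2 scale (dashed). Blue is limma on log2(FPKM+1) and orange is limma voom on recovered reads. The methods meet above 20 FPKM and part below 5 FPKM, where voom places 54.9% of genes of 1 to 2 FPKM within 2-fold.

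The best bounded genes lay above 100 FPKM and held close values in all libraries. chtopa, a factor of mRNA export, had 134, 138, 138 and 135 FPKM in DMSO and 135, 138, 135 and 138 FPKM in TBBPA. All 8 libraries lay between 134 and 138 FPKM, and the ratio of TBBPA to DMSO was bounded to 0.9402 to 1.07. atp2a2a, a calcium pump, had 131, 133, 129.9 and 131 FPKM in DMSO and 138, 138, 141 and 136 FPKM in TBBPA, without overlap but with a difference of only 0.08 (95% interval -0.02 to 0.17). eif5a, a translation factor, was bounded to 0.872 to 0.996-fold, and hsd17b12a, of fatty acid elongation, to 0.862 to 0.987-fold. The import receptor tnpo3, the export helicase ddx19, the corepressor gene rcor1, itprip and atf7ip were also among the 10 narrowest intervals.

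The least bounded genes varied several-fold inside a group. rps27a, which encodes a fusion of ubiquitin and a ribosomal protein, had 4.05, 2.37, 2.69 and 3.802 FPKM in DMSO and 3.53, 33.6, 9.47 and 16.7 FPKM in TBBPA. DMSO libraries were all low, and 3 of the 4 TBBPA libraries were higher by unequal amounts. The difference was 1.65 (95% interval 0.59 to 2.70), with an adjusted p of 0.684 in limma, 1.18 without TBBPA replicate 2 and 2.15 without TBBPA replicate 1. polr2i, a subunit of RNA polymerase II, had 54.97, 34.5, 10.8 and 8.65 FPKM in DMSO and 12.8, 32.8, 9.77 and 11.9 FPKM in TBBPA. Its 3 high libraries were in both groups, and the difference was -0.45 (95% interval -1.62 to 0.72) and 0.00 without DMSO replicate 1. prkrip1 had 7.95, 8.95, 49.3 and 35.4 FPKM in DMSO and 7.26, 14.2, 14.5 and 32.1 FPKM in TBBPA, and pank4, of coenzyme A metabolism, 17.7, 7.998, 6.88 and 2.28 FPKM in DMSO and 15.4, 4.45, 2.68 and 13.4 FPKM in TBBPA. In both, high and low libraries were found on each side.

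Other genes of this kind were rpl13a, rpl36a, znf593, tmem106a and tbc1d9, and pttg1, the securin gene. pttg1 had 16.2, 14.8, 20.6 and 26.5 FPKM in DMSO and 25.5, 12.8, 67.1 and 13.9 FPKM in TBBPA. TBBPA replicate 3 was far above the other 7, and the difference was 0.30 (95% interval -0.62 to 1.23) with that library and -0.19 without it. DMSO replicate 4 was the far library in rpl13a (2.52 FPKM, against 4.91 to 25.2 in the others), tmx3b (2.92, against 7.47 to 13.1) and snf8 (1.88, against 5.54 to 10.3). Without it the differences of tmx3b and snf8 moved from 0.58 to 0.21 and from 0.59 to 0.22. Among abundant genes the same library stood out in snrpb, with 1059, 1044, 1186 and 696 FPKM in DMSO and 959.5, 962, 1002 and 978 FPKM in TBBPA, and the difference of that gene was -0.00 (95% interval -0.29 to 0.29) with it and -0.17 without it. 

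Genes called at 3.5 hpf had differences centred on 0 at 2 hpf. At 3.5 hpf, in other libraries, limma called 1424 of 11859 genes (12.0%), 791 higher (6.67%) and 633 lower (5.34%) in TBBPA, and 925 without 3.5 hpf TBBPA replicate 2. Of those higher, 767 could be tested at 2 hpf, and 372 were then higher and 395 lower, with a median of -0.00. 51 of them, or 6.65%, had an unadjusted p under 0.05 at 2 hpf, against 7.19% of all genes tested. Of those lower, 367 could be tested, 175 higher and 192 lower, with a median of -0.01 and 45 (12.3%) at an unadjusted p under 0.05, 17 higher and 28 lower. The groups of both times share no library. Over the 10660 genes tested at both times, 50.8% had the same sign, and 10.6% were called at 3.5 hpf. Of these, 769 had an unadjusted p under 0.05 at 2 hpf. Among those, 435 (56.6%) had the same sign and 12.5% were called at 3.5 hpf. At an unadjusted p under 0.01 the same sign was found in 73 of 134 (54.5%), and 10.4% were called.

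The genes that differed most at 3.5 hpf had little or no RNA at 2 hpf. Of the 10 largest rises there, gadd45aa, isg15 and aplnrb had 0 reads in all 8 libraries of 2 hpf, and cdkn1a, fosab, jun, phlda3, bbc3, rasl11b and plekhn1 were under 1 FPKM. Of the 10 largest falls, sult6b1, foxd3 and ackr3b had 0 reads, and cldne, grhl3, tfap2a and hist1h2a4 were under 1 FPKM. 3 of the 20 could be tested at 2 hpf. ftr82 had a difference of 0.02 (95% interval -0.38 to 0.41), and hist2h3c, a histone H3 gene, of 0.00 (95% interval -0.91 to 0.92). Both were weak, and hist2h3c had 0 to 14 reads in a library. The intervals of the ratio by voom were wider, -0.68 to 0.88 for ftr82 and -1.49 to 3.23 for hist2h3c. trrap, a scaffold of acetyltransferase complexes, was the abundant exception. It had 19.96, 20.1, 18.1 and 18.1 FPKM in DMSO and 26.4, 26.5, 23.6 and 17.99 FPKM in TBBPA. TBBPA replicates 1 to 3 lay above all DMSO libraries and replicate 4 just below them, and the difference was 0.28 (95% interval 0.03 to 0.54), with an adjusted p of 0.684 in limma. At 3.5 hpf the difference was -1.78, with an adjusted p of 0.012 in limma. The libraries of 3.5 hpf were spread widely, at 3.93 ± 3.17 FPKM in TBBPA and 14.7 ± 4.89 FPKM in DMSO, and the groups overlapped.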

How the data were processed

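The authors deposited FPKM per gene and library. Per the submitters' processing notes, HISAT2 2.0.5 was used for alignment, and featureCounts 1.5.0-p3 for counting reads in genes. Genome build, annotation release, strand setting and RNA selection are each not given in the sources used here. The lengths of genes were deposited beside the values. FPKM times length was a whole multiple of 1 step in 100% of genes above 0 (tolerance 0.01), which gave the reads per gene. The scaling of the deposited values matched median-of-ratios size factors, computed separately for the 2 hpf table and the table of later times, so no test was made across tables. The reads assigned to genes per library ran from 12890838 to 14039093 at 2 hpf.

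Values were tested as log2(FPKM + 1) with limma 3.58.1 in R 4.3.3, with a trended variance and Benjamini-Hochberg adjustment over all genes with at least 1 FPKM in 4 libraries. The fit was tested on simulated data. A call was an adjusted p under 0.05, and intervals are at 95% and for 1 gene at a time. Single library measures were compared with an exact permutation test. The alternatives were a pseudocount of 0.1, no filter, a filter of 5 FPKM (added after the values were seen), TPM and total-count scaling, limma voom on the recovered reads, array weights, a robust variance prior, the replicate number as a block, and leaving out each library. Names and lists were chosen with earlier results of these data known.

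The genes named are, first, the 20 most abundant nuclear protein-coding genes. Next are the 10 highest and 10 lowest differences without overlap, at a mean of 5 FPKM or more in at least 1 group. The 10 smallest p-values, the 10 widest and 10 narrowest intervals, and the 10 in which 1 library lay farthest from the median follow. The last are the 10 largest rises and falls at 3.5 hpf, and members of 27 gene lists. 19 list symbols were matched through a table of identifiers and 37 were not found in the table. Some members of the lists and of the named genes are not reported here. The pattern for ribosomal protein genes was narrowed after the gene names were seen, to leave out the kinases and a binding protein whose symbols begin alike. Where genes overlap or share near-identical copies, as histones and ribosomal proteins do, the split of reads between them is uncertain.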

Additional observations from a re-analysis of the deposited data

Results flagged for a closer look

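In groups of 4 libraries, 1 library was set apart by a gap above Dixon's 95% critical value in 8 of 168 groups checked, and chance gives about 1 in 20. DMSO replicate 3 held 0.105% of its summed FPKM in histone acetyltransferase genes, against 0.113 to 0.114% in the other DMSO libraries. It also held 1.36% in ribosomal protein genes, against 1.29 to 1.30%. TBBPA replicate 4 held 0.460% in egg coat and oocyte genes, against 0.435 to 0.438% in the other TBBPA libraries, and 0.173% in glycolysis genes, against 0.161 to 0.162%. TBBPA replicate 3 held 0.863% in genes of the body axes, against 0.845 to 0.847%. Among single genes, exosc4 reached 6.09 FPKM in TBBPA replicate 3, against 4.94 to 5.12 in the others of its group. ppp3r1a reached 12.2 FPKM in DMSO replicate 4, against 9.92 to 10.1. BX119963.3 stood at 0.647 FPKM in TBBPA replicate 1 and at 0 in the other 3 TBBPA libraries.

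In 4 named genes the libraries of each time did not overlap between TBBPA and DMSO, but the direction was opposite at 2 and 3.5 hpf. The difference between the times was not tested, since the tables were scaled separately. The log2 difference of cth1 was -0.19 at 2 hpf and 0.18 at 3.5 hpf, and that of ccnb2 was -0.11 and 0.11. tmem17 had -0.72 and 0.26, and ccni2 had -0.44 and 0.65. For tmem17 the adjusted p in limma at 3.5 hpf was 0.086. The direction was the same at both times, also without overlap, in zp3f.1 (0.47 and 0.35) and dedd1 (0.55 and 0.21). This was also so in gpatch3 (0.31 and 0.19) and cntrl (0.42 and 0.44). tmem17, ccni2, zp3f.1, dedd1 and cntrl were named because their groups did not overlap at 2 hpf, and gpatch3 for its small p-value there. Their lack of overlap at 2 hpf thus came from the choice of genes. How many of all genes lacked overlap at both times, in either direction, was not counted. Over all genes tested at both times, overlapping or not, 50.8% had the same sign.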

How the results depend on the processing

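At 2 hpf, 0 genes were called in all 17 alternatives, with the smallest adjusted p in limma between 0.172 (without TBBPA replicate 1) and 0.836 (without DMSO replicate 3). Genes at an unadjusted p under 0.05 ranged from 490 (without TBBPA replicate 2) to 923 (without DMSO replicate 2) when 1 library was left out. The share of genes whose interval lay within 2-fold, 97.8%, was 91.2% with a pseudocount of 0.1, 89.6% with voom, 94.2% with TPM, 97.2% with no filter, 98.1% with array weights and 99.2% with the filter of 5 FPKM. It ranged from 96.9 to 97.7% with 1 library left out, where fewer samples widen the intervals. With the replicate number as a block it was 97.8%, with 0 called and 872 at an unadjusted p under 0.05. Deviations of same-numbered libraries correlated at -0.052 to 0.051, and those of differently numbered libraries at -0.119 to 0.067. The labels do not say whether a number marks a clutch or batch, and these values cannot decide it. At 3.5 hpf the 1424 calls became 925 (without TBBPA replicate 2) to 1510 (without TBBPA replicate 4) with 1 library left out, 1112 with no filter, 1422 with a pseudocount of 0.1, 1502 with the block and 1515 with TPM. Of 630 named or listed genes, at most 98 changed sign in an alternative (TPM, which shifts the median of all genes by 0.05) and 82 with a library left out (DMSO replicate 4), none of them with an unadjusted p under 0.05. Depth limits the weak genes, with a median of 46.8 reads per library between 1 and 2 FPKM.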

Other observations

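Of 14660 protein-coding genes with a mean under 1 FPKM at 2 hpf, 87 had at least 10 FPKM in DMSO at 3.5 hpf, in the separately scaled table. Of these, 20 belonged to the lists. They included the transcription factor genes klf17 (0.738 FPKM at 2 hpf and 191 ± 4.66 at 3.5 hpf), her5 (0.248 and 129 ± 4.99), sox3 (0.332 and 102 ± 2.47) and irx7 (0.0804 and 102 ± 5.03), each with SD over 4 DMSO libraries at 3.5 hpf. h2afx, a histone H2A gene that marks DNA damage when phosphorylated, was also among them, with 0.726 FPKM at 2 hpf and 57.0 ± 3.36 at 3.5 hpf. In TBBPA at 3.5 hpf, h2afx stood at 20.1 ± 3.61 FPKM, with an adjusted p of 3.6e-05 in limma.

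Some genes with general roles were near 0 at 2 hpf while their partners were abundant. mcm6, of the replicative helicase, had a mean of 0.0636 FPKM, while mcm4 had 92.3. rpl32, of the large ribosomal subunit, had 0 reads in all 8 libraries.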
